A study of Gallus gallus with 30 samples.

Results

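Genes of the proteasome were followed after hatch in the Pectoralis major, the large breast muscle of chickens. Birds were males of a meat line, Arbor Acres broilers, and of an egg line, White Leghorn layers, and were sampled at the age of 1 d and then every 2 w up to 8 w. They were chosen as genes whose probe sets carry 1 symbol in the platform annotation, beginning with PSMA, PSMB, PSMC, PSMD, PSME, PSMF or PSMG. Of 13009 genes with such a probe set on the Affymetrix Chicken Genome Array, 37 were members, with 58 probe sets, and the brightest probe set of each gene was used. PSMC3IP, a cofactor of meiotic recombination in mammals, shares the first letters of its symbol with the ATPases of the proteasome but is not a subunit, so it is described apart and counts below are over the other 36 genes. Each pool combined RNA from 5 birds of one line and age, and 3 arrays were run per pool, which gave 30 arrays from 10 pools. Housing on the floor and the diet, a commercial feed for layers, did not differ between the lines. A pool is the unit of replication, and the 3 arrays of a pool measure technical error only.

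The proteasome is the large protease that degrades proteins tagged with ubiquitin. Its barrel, the core particle, is made of outer alpha rings, which gate the entrance, and inner beta rings, which carry the cutting sites. The cap, or regulatory particle, binds ubiquitin chains, removes them, and unfolds the substrate with a ring of ATPases. Chaperones build core and cap, and other activators can take the place of the cap on the core. In skeletal muscle of mammals the proteasome breaks down myofibrillar protein, and its genes and muscle ubiquitin ligases rise together in fasting and disuse.

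The members covered 7 genes of the alpha ring (PSMA1 to PSMA7), 6 of the beta ring (PSMB1 to PSMB5 and PSMB7), 5 ATPases of the cap (PSMC1, PSMC2, PSMC3, PSMC5 and PSMC6) and 8 other subunits of the cap (PSMD1, PSMD2, PSMD3, PSMD6, PSMD7, PSMD12, PSMD13 and PSMD14). They further included 3 chaperones of cap assembly (PSMD5, PSMD9 and PSMD10), the activators PSME3 and PSME4, the inhibitor PSMF1 and 4 chaperones of core assembly (PSMG1 to PSMG4). PSMB6, PSMC4, PSMD4, PSMD8 and PSMD11 were not analysed here. A total of 6 probe sets with a member among several symbols was left out. All 37 members lay above the median signal of all probe sets, so none was lost to a filter on low values. Their mean log2 signals ran from 4.74 for PSMC3IP and 5.66 for PSMD13 to 10.4 for PSMB1, but signals of different probe sets are not on one scale and are not ranked here.

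Across all probe sets, the R² between arrays of a pool lay between 95.4% and 98.7% with a median of 98.2% over 30 pairs. The SD of the 3 arrays had a median of 0.14 on the log2 scale over the 36 members and 10 pools. It was widest for PSMD3 in the layer pool at 6 w, at 0.94. That pool had the widest arrays of the layer pools for the members, with a median SD of 0.20, and the broiler pool at 1 d had the widest of all, with 0.22. The labelled tissue was checked with markers of fast skeletal muscle, of which 7 had a probe set. ACTA1, the skeletal actin gene, lay between 13.7 and 13.8 in all 10 pools, and the fast troponin genes TNNI2 and TNNT3 lay above 12.9. PVALB, the parvalbumin gene, lay at 3.40 to 4.78. MYLPF was the 1 marker of the 7 called between the lines, higher in broilers by 0.85 ± 0.08 (SE, limma, adjusted p = 0.00434). Bulk tissue cannot tell fewer cells of a type from less RNA per cell, and this holds for each value below.

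Of the 26 subunits of core and cap, 12 were higher and 1 was lower after the first day, and 13 did not pass the test. The difference was positive for 22 of them, beside 59.5% of all probe sets. Over both lines, limma called 14 of the 36 members higher and 3 lower in the pools of 2 w to 8 w than in those of 1 d at an adjusted p under 0.05. The step from 1 d was broad in the transcriptome, with 35% of all probe sets and 42.9% of the brightest probe sets of genes called in either direction. Higher calls made up 17.1% of all probe sets and 20.2% of the brightest ones, and lower calls 17.9% and 22.7%. The median of the 36 members was 0.18 on the log2 scale, beside 0.05 over all probe sets. It was 0.22 in broilers and 0.16 in layers.

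**Figure D1:**
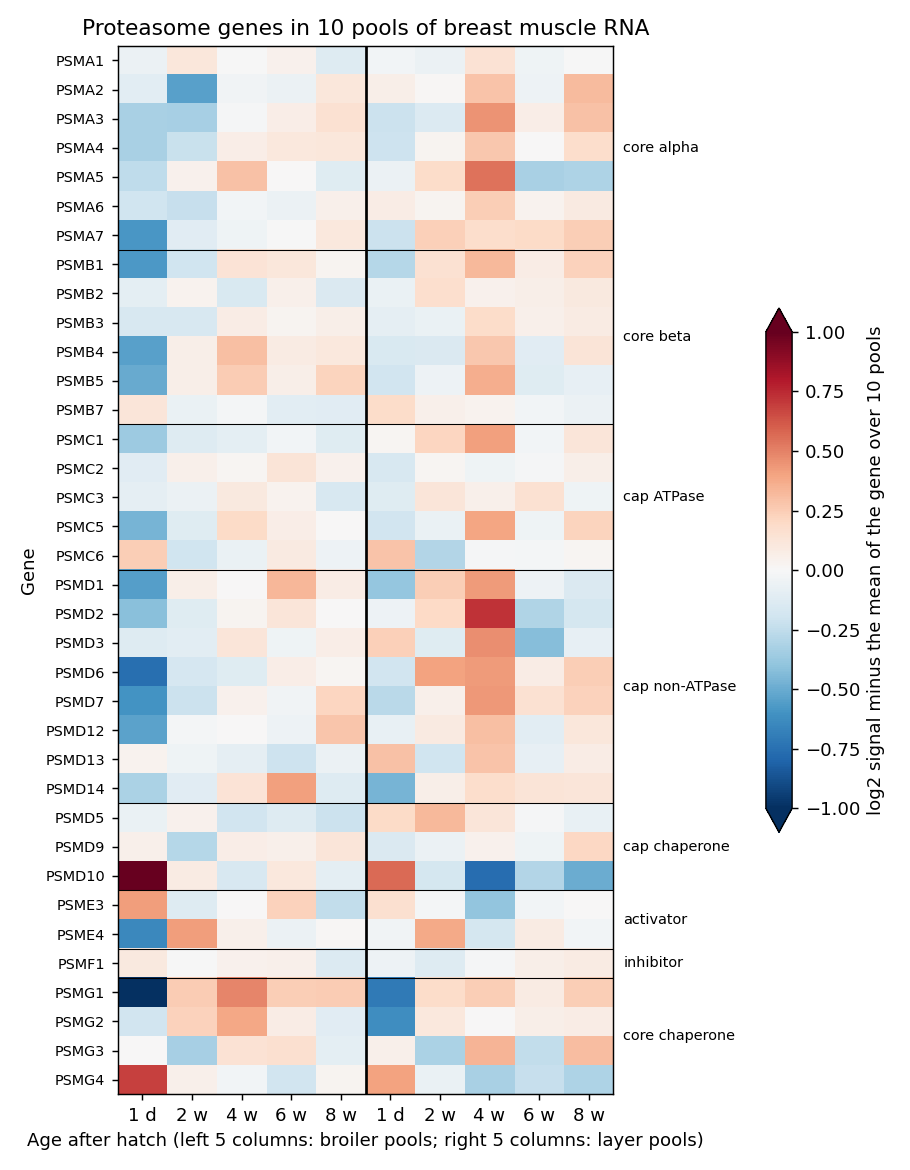
Log2 signal of 36 proteasome genes (rows, grouped by role) in 10 pools (columns, broiler pools left and layer pools right, each from 1 d to 8 w), as the difference from the mean of the gene over the 10 pools, each pool the mean of 3 arrays. The broiler pool of 1 d is the lowest of the 10 pools for 15 genes and the layer pool of 4 w the highest for 17 genes.

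In the alpha ring all 7 genes had a positive difference between later ages and 1 d, with a median of 0.20, and 3 were called. PSMA7 had log2 signals of 8.91, 9.39, 9.45, 9.50 and 9.60 in broilers from 1 d to 8 w, and of 9.28, 9.74, 9.68, 9.69 and 9.75 in layers. All 8 later pools lay above both pools of 1 d. The log2 difference was 0.50 ± 0.10 (SE, limma, adjusted p = 0.00369), a 1.41-fold increase. PSMA3 and PSMA4 rose by 0.34 ± 0.11 (SE, adjusted p = 0.0374) and 0.33 ± 0.10 (SE, adjusted p = 0.0298). The other alpha genes, PSMA1, PSMA2, PSMA5 and PSMA6, did not pass, with log2 differences from 0.02 for PSMA2 to 0.20 for PSMA5. PSMA2 ranged over 0.86 on the log2 scale among the 10 pools, with its lowest value in the broiler pool of 2 w, at 7.82 ± 0.23 (SD of 3 arrays).

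In the beta ring PSMB1, PSMB4 and PSMB5 rose. PSMB1, which has no cutting site of its own in vertebrates, had log2 signals of 9.81, 10.19, 10.52, 10.50 and 10.41 in broilers from 1 d to 8 w, and of 10.10, 10.54, 10.71, 10.45 and 10.61 in layers. The lowest later pool, the broiler pool of 2 w, lay above the higher of the 1 d pools. The log2 difference was 0.53 ± 0.10 (SE, limma, adjusted p = 0.00303). PSMB5 encodes the subunit that cuts after hydrophobic residues. Its log2 signal lay between 6.28 and 6.48 at later ages and at 5.72 at 1 d in broilers, and between 6.10 and 6.58 at later ages and at 6.03 at 1 d in layers, a difference of 0.43 ± 0.13 (SE, adjusted p = 0.0292). PSMB4 rose by 0.43 ± 0.12 (SE, adjusted p = 0.0244). For PSMB7, which encodes the subunit that cuts after basic residues, all 8 later pools lay below both pools of 1 d. Its log2 difference was -0.19 ± 0.09 (SE, adjusted p = 0.124), with a 95% interval of -0.39 to 0.01. A dimmer probe set of PSMB7 gave -0.56 (limma, adjusted p = 0.0036). PSMB7 was also called lower with the mean over all its probe sets, and by its brightest one without the intensity trend. PSMB5 and PSMB7 were set side by side by their own differences and the gap between them was not tested.

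Among the ATPases of the cap PSMC5 rose by 0.41 ± 0.10 (SE, limma, adjusted p = 0.0142) and PSMC6 fell by 0.33 ± 0.09 (SE, adjusted p = 0.0218). PSMC6 stood at 10.11 in broilers at 1 d and at 9.67, 9.80, 9.96 and 9.81 at later ages, and at 10.15 in layers at 1 d and 9.58, 9.86, 9.85 and 9.88 later. It was the lone core or cap subunit called lower in the main fit by its brightest probe set. PSMC1, PSMC2 and PSMC3 had positive differences of 0.21, 0.17 and 0.13 that did not pass.

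The other cap subunits had the largest median of the groups of structural subunits, 0.43 over 8 genes, with 5 called higher and none lower. PSMD6 had log2 signals of 8.43, 9.01, 9.07, 9.25 and 9.20 in broilers from 1 d to 8 w, and of 8.99, 9.59, 9.61, 9.26 and 9.43 in layers. The broiler pool of 1 d was the lowest of the 10 pools, and the layer pool of 1 d was below every later pool. The log2 difference was 0.59 ± 0.13 (SE, limma, adjusted p = 0.00756). PSMD7, the subunit that pairs with PSMD14, rose by 0.54 ± 0.10 (SE, adjusted p = 0.00312), and PSMD14, the deubiquitinase that takes ubiquitin off the substrate, by 0.49 ± 0.12 (SE, adjusted p = 0.0136). PSMD1, a scaffold subunit of the base, rose by 0.59 ± 0.15 (SE, adjusted p = 0.0159). PSMD12, a lid subunit, rose by 0.38 with an adjusted p of 0.0490, close to the threshold. PSMD2, the other scaffold of the base, had a difference of 0.29 ± 0.19 (SE, adjusted p = 0.258) and spanned 1.13 on the log2 scale among the pools. PSMD3 and PSMD13, both lid subunits, had negative differences of -0.07 and -0.21 that did not pass.

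**Figure D2:**
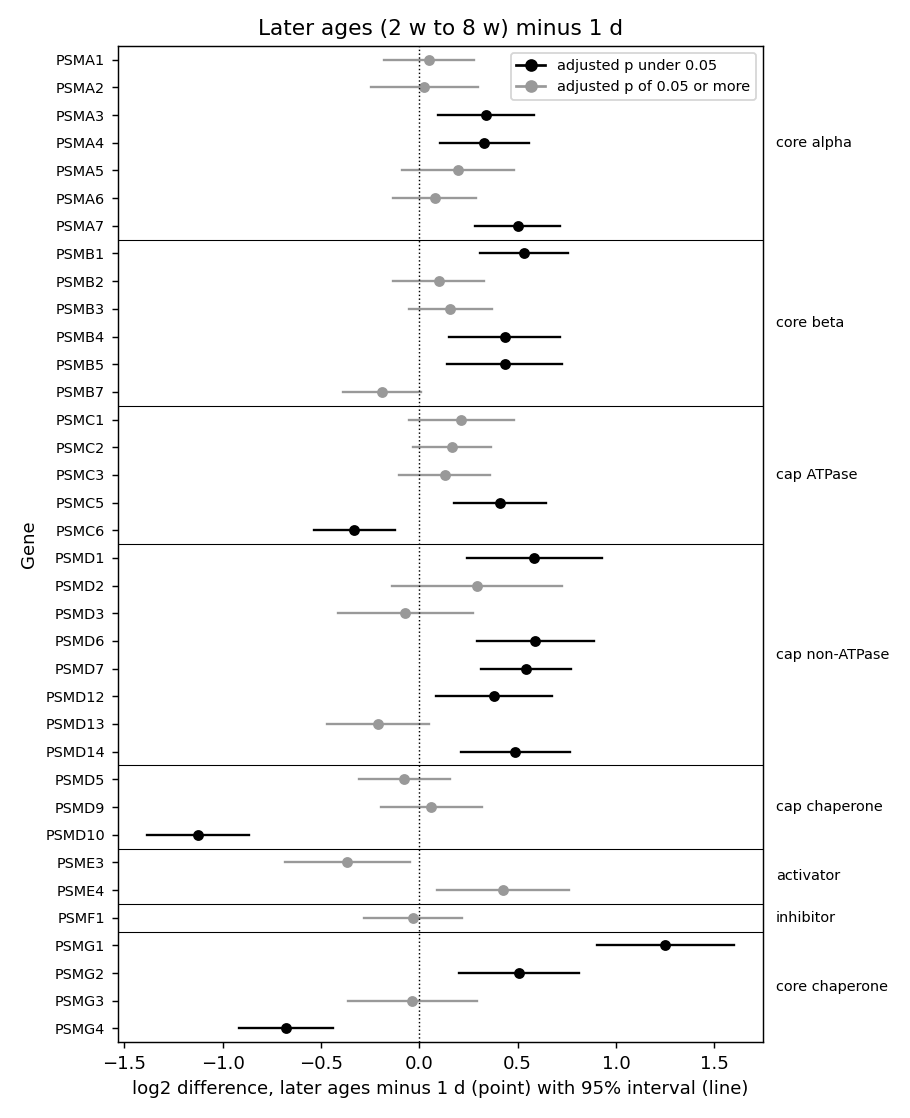
Log2 difference between the mean of 2 w, 4 w, 6 w and 8 w and the value at 1 d, over both lines, for 36 proteasome genes grouped by role (points), with the 95% interval from limma (lines) and calls at an adjusted p under 0.05 in black. PSMG1 lies farthest to the right at 1.25 and PSMD10 farthest to the left at -1.13.

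The chaperones held the largest changes in both directions. PSMG1 and PSMG2 encode partners of a heterodimer that starts the alpha ring, and both rose. PSMG1 had log2 signals of 6.40, 7.95, 8.18, 7.94 and 7.95 in broilers from 1 d to 8 w, and of 6.98, 7.88, 7.94, 7.77 and 7.94 in layers. The pool of 1 d was the lowest in either line, and the 8 later pools lay between 7.77 and 8.18. This gave a log2 difference of 1.25 ± 0.15 (SE, limma, adjusted p = 0.000301), a 2.38-fold increase. PSMG2 rose by 0.51 ± 0.14 (SE, adjusted p = 0.0179). PSMG3 and PSMG4 encode partners of the other heterodimer of core assembly. PSMG4 stood at 7.38 in broilers at 1 d and at 6.75, 6.67, 6.50 and 6.73 later, and at 7.10 in layers at 1 d and 6.63, 6.37, 6.46 and 6.39 later. It fell by 0.68 ± 0.11 (SE, adjusted p = 0.00123), while PSMG3 had a difference of -0.03 with a 95% interval of -0.36 to 0.30.

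PSMD10, the gene of gankyrin, a chaperone of the ATPase ring that is known as an oncoprotein in mammals, had the largest decrease of the members. Its log2 signals were 8.07, 6.91, 6.67, 6.93 and 6.74 in broilers from 1 d to 8 w, and 7.40, 6.66, 6.07, 6.54 and 6.33 in layers. The pool of 1 d was the highest in either line. Later ages differed from 1 d by -1.13 ± 0.11 on the log2 scale (SE, limma, adjusted p = 9.73e-05), a 2.18-fold decrease. The other chaperones of the cap did not pass, with -0.08 for PSMD5 and 0.06 for PSMD9. Of the activators, PSME3, a nuclear activator of the core, had a difference of -0.36 ± 0.14 (SE, adjusted p = 0.0720) and PSME4, which encodes a large single-chain activator, one of 0.43 ± 0.15 (SE, adjusted p = 0.0523). PSME3 was lower in all 8 later pools than in the 1 d pool of the same line. PSME4 was higher in 7 of 8. PSMF1, an inhibitor of the core in vitro, had a difference of -0.03 with a 95% interval of -0.28 to 0.22, so that a change beyond that range was not seen.

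**Figure D3:**
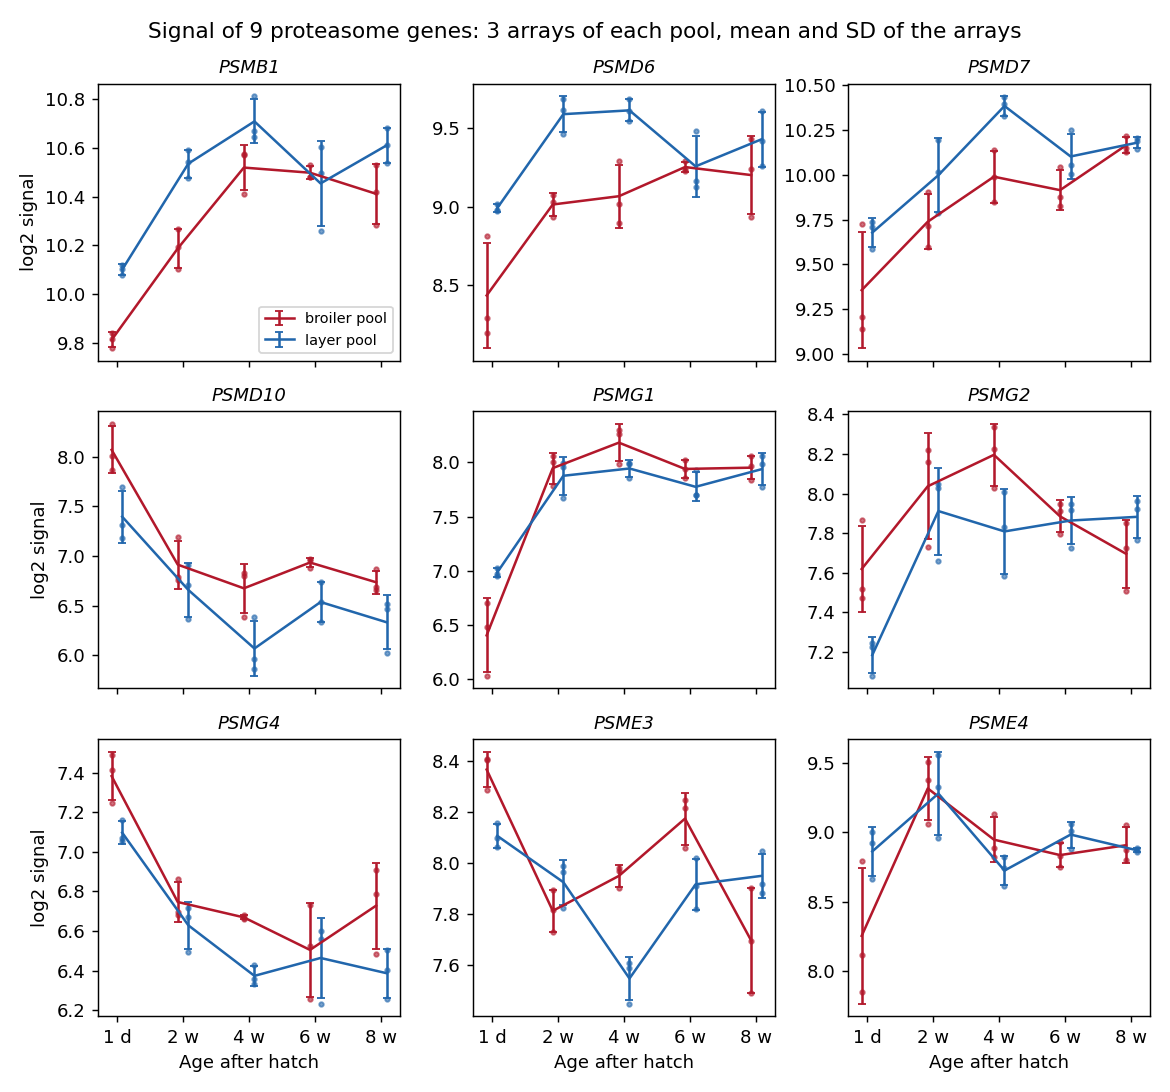
Log2 signal (vertical axes, which differ in range) of 9 proteasome genes by age (horizontal axes) in broiler pools (red) and layer pools (blue), with the 3 arrays of each pool as points and their mean and SD as lines and bars. PSMG1 stands at 7.77 or more at later ages and at 6.40 (broilers) and 6.98 (layers) at 1 d, and PSMD10 at 6.93 or less at later ages and at 8.07 (broilers) and 7.40 (layers) at 1 d.

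The broiler pool of 1 d was the lowest of all 10 pools for 15 of the 36 members, against 17.3% of all probe sets. In all, 12 members had all 8 later pools above both pools of 1 d, against 20.9% of all probe sets, and 4 (PSMB7, PSMC6, PSMD10 and PSMG4) had all of them below, against 16.8%. Only 2 pools stand on the side of 1 d, so leaving out either rests the step on 1 pool, and several calls depend on which is kept. Without the broiler pool of 1 d the log2 differences of PSMB4, PSMB5 and PSMD12 were 0.19, 0.22 and 0.17. Those of PSMD14 and PSMG2 were 0.59 and 0.68. Without the layer pool of 1 d, PSMB4 and PSMB5 stood at 0.68 and 0.65, PSMD12 at 0.59, PSMD14 at 0.39 and PSMG2 at 0.33. Without array number 2 of every pool 8 members were called higher. Other cell types moved over the same step. Of 7 genes of connective tissue all fell, and the mean log2 signal of the list was 10.2 to 10.7 in later pools and 11.3 in both pools of 1 d. Of 6 markers of dividing cells 5 fell, with list means of 5.35 to 6.59 in later pools and of 7.40 and 6.88 in the broiler and layer pools of 1 d. Of 8 immune markers 7 rose, with list means of 5.90 to 6.94 in later pools and of 5.23 and 5.24 in the broiler and layer pools of 1 d. Of 5 slow or cardiac muscle genes 3 fell, with list means of 3.52 to 7.00 in later pools. At 1 d these means were 6.23 in the broiler pool and 7.15 in the layer pool. Of 3 nerve markers 2 fell, as did 2 of 3 erythroid ones. Of 5 adipocyte markers 2 rose and 1 fell, and of 8 endothelial markers 1 rose and 1 fell. Cartilage genes set the 2 pools of 1 d apart. The mean log2 signal of 5 of them was 5.79 in the layer pool of 1 d and 3.99 in the broiler pool. It was 3.90 to 4.14 in later pools. MATN3, COL9A3 and ACAN stood at 6.76, 6.25 and 5.55 in the layer pool of 1 d and at 2.89, 3.36 and 3.62 in the broiler pool. COL2A1 and SOX9 stood at 6.21 and 4.15 against 5.91 and 4.16. The part of all these cell types in the changes of the proteasome genes was not tested.

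From 2 w to 8 w no member had a slope with age that passed in limma, where 0.161% of all probe sets did. An unadjusted p under 0.05 was found for 3 of 36 members (8.33%), near the 9.93% of all probe sets. The adjusted p of the members lay between 0.459 and 0.989. The largest slopes were those of PSMA2 and PSMA3, at 0.06 per week for both, and those of PSMA5 and PSME4, at -0.08 and -0.06 per week. PSMA5 stood at 9.99, 10.24, 9.95 and 9.82 in broilers from 2 w to 8 w and at 10.13, 10.48, 9.62 and 9.64 in layers. PSMD5 had a slope of -0.05 and PSMG3 one of 0.05 per week.

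In the comparison of the lines, averaged over the 5 ages, 1 of the 36 members, PSMD10, was higher in broilers in limma at an adjusted p under 0.05 and none was lower, where 1.35% of all probe sets passed, 0.63% higher and 0.723% lower. At an unadjusted p under 0.05 there were 10 members (27.8%), 2 higher and 8 lower in broilers, beside 14.3% of all probe sets. The median of the members was -0.07 on the log2 scale, beside 0.00 over all probe sets. It was -0.12 without the pools of 6 w, -0.04 without array number 1 of every pool and -0.04 after quantile normalization. Of the 26 subunits of core and cap 22 had a negative difference, beside 48.2% of all probe sets, with a median of -0.11 and a range of -0.38 to 0.05. The 10 chaperones, activators and inhibitor had 5 negative differences and a median of 0.01.

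PSMD10 was higher in the broiler pool at every age, by 1.59-fold at 1 d, 1.19-fold at 2 w, 1.52-fold at 4 w, 1.32-fold at 6 w and 1.32-fold at 8 w. The log2 difference was 0.47 ± 0.09 (SE, limma, adjusted p = 0.0469), or 1.38-fold. The groups overlapped across ages, since the layer pool of 1 d, at 7.40, lay above the broiler pools of 2 w to 8 w. The adjusted p lies just under the threshold. It lay between 5.07e-05 and 0.166 over 16 alternatives, of which 6 kept the call. Log2 differences were 0.41 to 0.52 throughout. The 6 include the fits to the 30 single arrays. Those with no term for the pool rest on too small a spread and gave the lowest adjusted p. On pool means the call was kept after quantile normalization, without the intensity trend and among probe sets above the median signal. Leaving out any age or any array number lost it. Of the 6 markers of dividing cells 2 were higher in broilers, with a median of 0.41 over the list, and their part in the difference of PSMD10 was not tested. PSMG4 was likewise higher in broilers at all 5 ages, at 0.22 ± 0.09 (SE, adjusted p = 0.285), and PSMG2 at 4 of 5 ages, at 0.16 ± 0.11 (SE, adjusted p = 0.593).

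**Figure D4:**
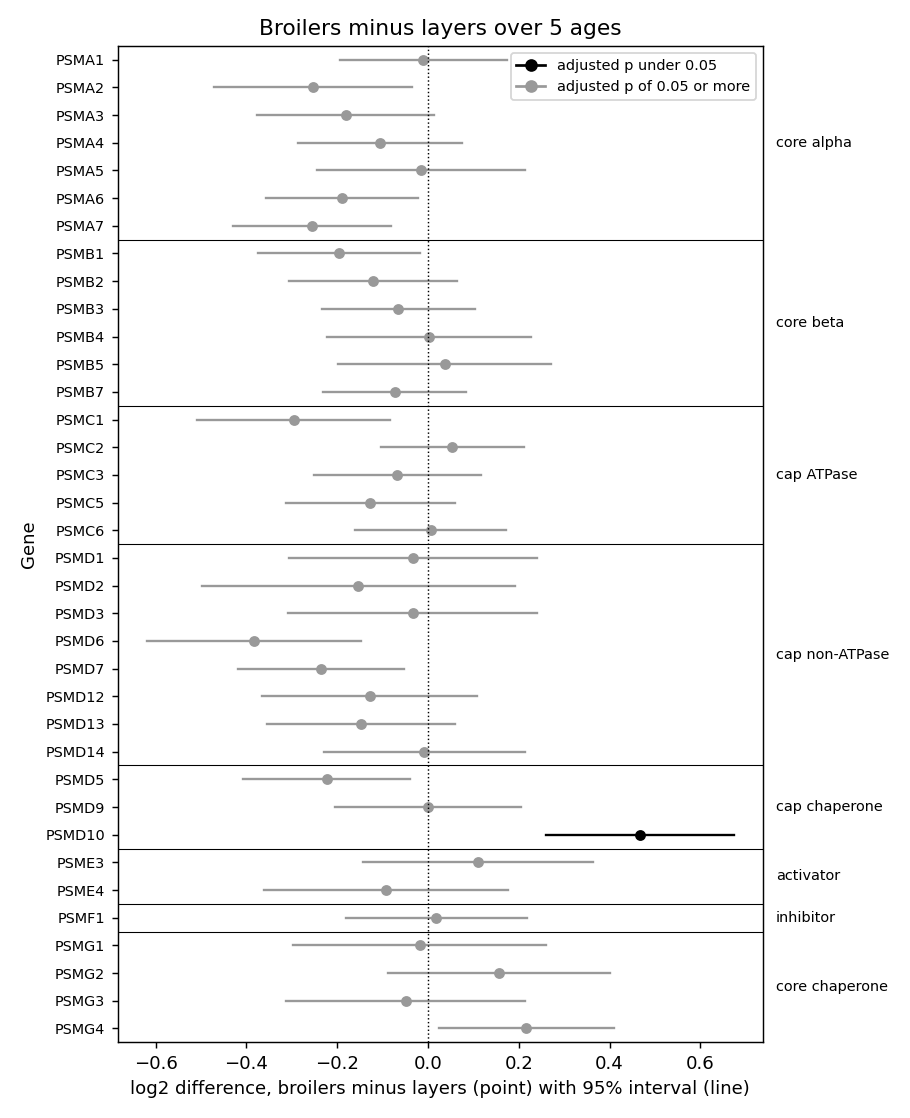
Log2 difference between broilers and layers over 5 ages, broilers minus layers, for 36 proteasome genes grouped by role (points), with the 95% interval from limma (lines) and calls at an adjusted p under 0.05 in black. PSMD10 at 0.47 is the single call, and 22 of 26 core and cap subunits lie left of 0.

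The largest negative difference was that of PSMD6, at -0.38 ± 0.10 (SE, limma, adjusted p = 0.124). Its broiler pool was lower by 1.47-fold at 1 d, 1.49-fold at 2 w and 1.46-fold at 4 w, and the pools of 6 w were equal within the SD of their arrays, at 9.25 ± 0.03 in broilers and 9.26 ± 0.19 in layers. PSMC1, whose ATPase opens the gate of the core in yeast, had -0.30 ± 0.09 (SE, adjusted p = 0.183) and was 1.42-fold lower in broilers at 4 w. PSMA7 had -0.26 ± 0.08 (SE, adjusted p = 0.159) and was lower in broilers at all 5 ages. In all, 9 members were lower in broilers at all 5 ages (PSMA2, PSMA6, PSMA7, PSMB2, PSMB3, PSMB7, PSMD5, PSMD6 and PSMD7), against 6.33% of all probe sets, and 2, PSMD10 and PSMG4, were higher, against 6.68%. The 95% intervals of the members reached 0.21 to either side of the estimate in the median. For the catalytic subunits they ran from -0.20 to 0.27 for PSMB5 and from -0.23 to 0.08 for PSMB7, and for PSMF1 from -0.18 to 0.22.

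The difference between the pools of the lines varied with age. The broiler pool was lower for 27 of the 36 members at 1 d, 23 at 2 w, 25 at 4 w, 13 at 6 w and 26 at 8 w, beside 45.1%, 46.6%, 50.9%, 56.2% and 45.7% of all probe sets. The medians of the 36 were -0.16, -0.11, -0.19, 0.05 and -0.08. Each age holds 1 pool of each line, so these have no replicate check. At 1 d PSME4 and PSMG1 had the lowest broiler signals relative to layers, with log2 differences of -0.61 and -0.58, and PSMD10 and PSMG2 the highest, 1.59-fold and 1.35-fold higher. At 2 w PSMD6 and PSMA2 were 1.49-fold and 1.47-fold lower, and PSMD10 and PSMB4 1.19-fold and 1.15-fold higher. At 4 w PSMD2 was 1.61-fold lower and PSMD6 1.46-fold lower, while PSMD10 and PSME3 were 1.52-fold and 1.32-fold higher. At 6 w the order turned for several cap subunits, and PSMD2 was 1.34-fold and PSMG3 1.33-fold higher in the broiler pool, with PSMA7 and PSMD7 both 1.14-fold lower. At 8 w PSMD10 and PSMG4 were 1.32-fold and 1.27-fold higher, and PSMG3 and PSME3 1.32-fold and 1.19-fold lower. The arrays of the layer pool at 6 w had SDs of 0.48 for PSMD2 and 0.49 for PSMG3, which exceed these differences of 0.43 and 0.41 on the log2 scale. Array number 3 of that pool was the lowest of its 3 arrays for most of the 36 members. In it PSMD2 stood at 6.60, PSMG3 at 6.75 and PSMD3 at 6.92. The other arrays of the pool read at least 7.43, 7.57 and 8.20 for these genes. PSMA4, PSMA7, PSMB2, PSMD7 and PSME4 went the other way, with their highest values in array number 3. The count and medians at 6 w include this array and were not redone without it, so the turn cannot be read as a change with age. For PSMA1 and PSMC5 the other arrays read at least 9.77 and 9.99, above the broiler pool means of 9.69 and 9.95. For PSMD2 and PSMG3 the other arrays lay below the broiler pool means of 7.59 and 7.72.

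**Figure D5:**
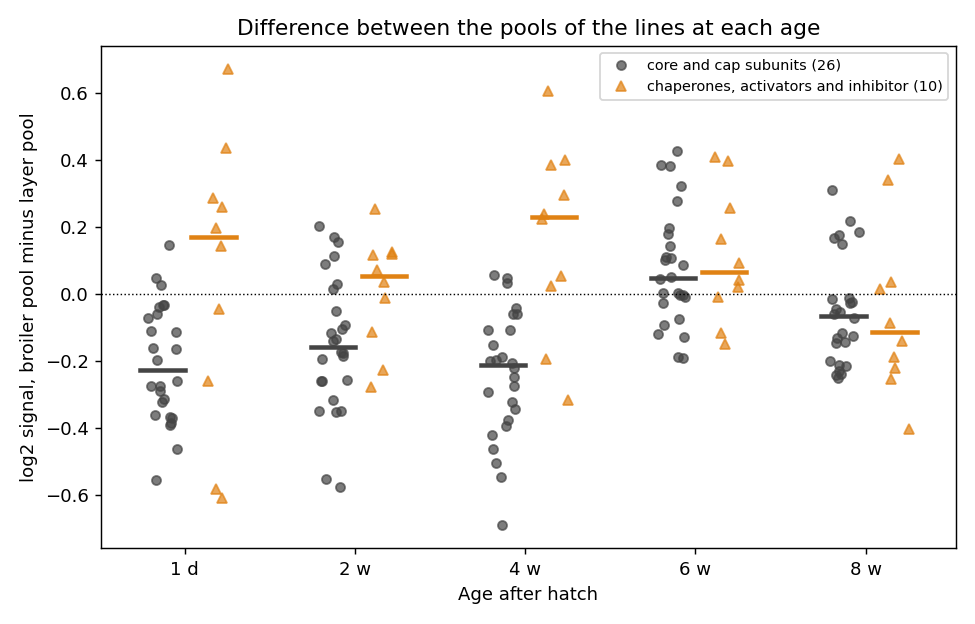
Difference in log2 signal between the broiler pool and the layer pool at each age (horizontal axis) for 26 core and cap subunits (grey circles) and 10 chaperones, activators and the inhibitor (orange triangles), with the median of each set as a bar. The medians of the core and cap subunits are -0.23, -0.16, -0.21, 0.05 and -0.07 from 1 d to 8 w, and those of the others 0.17, 0.05, 0.23, 0.07 and -0.11. Values at 6 w include array number 3 of the layer pool, which was the lowest of the 3 arrays of that pool for most members.

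In limma no member passed the test of the line difference at 1 d against the later ones, which 0.294% of all probe sets passed, and 3 members (8.33%) had an unadjusted p under 0.05, near the 7.96% of all probe sets. The nearest were PSMG1, at -0.70 ± 0.21 (SE, adjusted p = 0.385), PSME4, at -0.65 ± 0.22 (SE, adjusted p = 0.454), and PSMB4, at -0.49 ± 0.20 (SE, adjusted p = 0.570). PSMG1 stood at 7.94 to 8.18 at later ages and 6.40 at 1 d in broilers, and at 7.77 to 7.94 at later ages and 6.98 at 1 d in layers. PSME4 was 0.75 higher on the log2 scale at later ages than at 1 d in broilers and 0.10 higher in layers. The broiler pool of 1 d had SDs of 0.34 and 0.49 over its arrays for these genes.

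The layer pool of 4 w stood out for many structural subunits, though less for the ATPases of the cap. It had the highest signal of all 10 pools for 17 of the 36 members, against 9.15% of all probe sets, and the highest of the 4 later layer pools for 21, against 23.2%. Relative to the mean of each gene over the 10 pools it lay higher by a median of 0.27 for the 13 core subunits. The median was 0.05 for the 5 ATPases of the cap, 0.43 for its 8 other subunits and -0.29 for the activators. PSMD2 stood at 7.34, 7.49, 7.59 and 7.46 in broilers from 2 w to 8 w, and at 7.66, 8.18, 7.16 and 7.29 in layers. PSMD3 stood at 8.84 ± 0.10 in the layer pool of 4 w (SD of 3 arrays), above 8.26 at 2 w, 7.96 at 6 w and 8.30 at 8 w. PSMA3 reached 10.12 ± 0.15 and PSMA5 10.48 ± 0.09 in that pool. The chaperone gene PSMD10 and the activator gene PSME3 had their lowest values of all 10 pools in it, at 6.07 ± 0.27 and 7.55 ± 0.09, as did PSMG4 at 6.37 ± 0.05. The chaperones were not low as a group. PSMG3, at 7.90, had its highest value of all 10 pools there, and PSMG1 its highest of the 4 later layer pools. The 7 assembly chaperones lay at a median of 0.04 relative to the mean of each gene. The mean log2 signal of 15 interferon response genes was 7.78 in the same pool, against 5.50 to 6.21 in the other later pools. That of 5 slow or cardiac muscle genes was 7.00 in it, against 3.52 to 5.03 in the other later pools. Whether these go together was not tested, and the pool holds 5 birds with no replicate.

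Of 43 symbols listed for partner genes of the proteasome, some of them synonyms of one another, 35 had a probe set. Over the step from 1 d, 13 rose and 7 fell in limma, with a median of 0.18. Of the brightest probe sets of all genes 20.2% rose and 22.7% fell. In the comparison of the lines 1 partner was lower and none higher in broilers, with a median of -0.10. Of the brightest probe sets of all genes 0.922% were lower and 0.776% higher. POMP, which encodes the maturation factor of the core, had log2 signals of 8.58, 9.26, 9.50, 9.61 and 9.71 in broilers from 1 d to 8 w, and of 9.10, 9.80, 10.20, 9.61 and 9.81 in layers. It rose by 0.84 ± 0.14 (SE, limma, adjusted p = 0.00179). ADRM1, a ubiquitin receptor of the cap, rose by 0.49, ECPAS, which encodes a protein that tethers core and cap, by 0.35, and USP14, a deubiquitinase on the cap, by 0.68. UBQLN1 and RAD23B, shuttles that carry ubiquitinated proteins to the proteasome, rose by 0.99 and 0.65, and AKIRIN2, which brings proteasomes into the nucleus in mammals, by 0.64. TXNL1, ZFAND2A, UBE3A, NSFL1C, BLMH and TPP2 rose too, by 0.34 (BLMH) to 1.51 (TPP2), the gene of a giant peptidase that acts after the proteasome.

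The 7 genes that fell included the muscle ubiquitin ligases FBXO32 and TRIM63, which mark muscle wasting in mammals. Their log2 differences were -2.09 ± 0.61 (SE, limma, adjusted p = 0.0251) and -1.04 ± 0.20 (SE, adjusted p = 0.0038). FBXO30, an F-box gene, had a difference of -1.41 over this step from 1 d. The study names it from arrays and qRT-PCR for a higher level in layers, a comparison of the lines. FOXO3, a transcription factor that drives muscle ligases in mammals, had -1.43, ZFAND5, whose protein binds the proteasome, -1.65, FAF2 -0.51 and RPS27A, which encodes a ubiquitin fused to a ribosomal protein, -0.26. FBXO32 varied widely among the later pools. It stood at 10.36, 9.60, 8.71, 6.76 and 9.57 in broilers from 1 d to 8 w, and at 10.93, 8.12, 8.19, 9.23 and 8.26 in layers. TRIM63 stood at 10.93, 10.32, 9.59, 9.54 and 10.63 in broilers from 1 d to 8 w, and at 11.01, 9.83, 9.71, 9.98 and 9.85 in layers.

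The partner gene that differed between the lines was NSFL1C, a cofactor of the unfoldase VCP. It had log2 signals of 5.88, 6.55, 6.50, 6.60 and 6.16 in broilers from 1 d to 8 w, and of 7.23, 7.92, 7.94, 7.80 and 7.95 in layers. Every broiler pool lay below every layer pool, with a log2 difference of -1.43 ± 0.10 (SE, limma, adjusted p = 0.00154). Nearest to passing after NSFL1C were FBXO30, lower in broilers at -0.65 ± 0.17 (SE, adjusted p = 0.103), and TPP2, higher at 0.77 ± 0.20 (SE, adjusted p = 0.105). POMP had a difference between the lines of -0.37 ± 0.11 (SE, adjusted p = 0.170). Of the 35 partners 12 had a positive difference.

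PSMC3IP had log2 signals of 5.37, 4.65, 4.75, 4.89 and 4.64 in broilers from 1 d to 8 w, and of 4.99, 4.38, 4.62, 4.57 and 4.56 in layers. It fell by 0.55 ± 0.09 (SE, limma, adjusted p = 0.00175) over the step from 1 d. Between the lines it was higher in the broiler pool at all 5 ages, at 0.24 ± 0.07 (SE, adjusted p = 0.175).

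For 16 members there was more than 1 probe set, and for 8 of them the probe sets differed in the sign of the change from 1 d. PSME4 had 0.43 for the brightest probe set and -0.23 and -0.28 for the others, so the direction given for its change depends on the probe set. PSMG4 had -0.68 for the brightest, -0.88 for the next and 0.06 for a dim one. The brightest probe set of PSMB5 belongs to a type that can bind related transcripts, and the other one gave 0.61. With the mean over all probe sets of a gene the log2 differences of PSMB1, PSMD7 and PSMD14 were 0.27, 0.32 and 0.15, and PSMD14 no longer passed. For 6 members the probe sets differed in the sign of the difference between the lines. PSMD5 had -0.22 for the brightest and 0.16 for the other. Dim probe sets of PSMB1 and PSMD7 were called lower in broilers in limma, at -0.43 (adjusted p = 0.0286) and -0.52 (adjusted p = 0.0225), where their brightest ones did not pass.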

How the data were processed

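Deposited log2 values of 30 Affymetrix Chicken Genome Arrays were used. The authors had normalized them with RMA, which corrects background, equalises arrays and summarises each probe set, and had used MAS5 for present calls, which were not used here. Their versions: not given in the sources used here. Array medians lay between 4.08 and 4.20. RMA sets arrays to a common distribution, so that a change shared by most genes would not be seen. Of 38535 probe sets 96 controls were left out. Symbols came from the platform annotation, and all 37 members matched a RefSeq gene by ID. No sequence was used.

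Means of the 3 arrays of each of 10 pools entered linear models in limma 3.58.1 (R 4.3.3), with an intensity trend and Benjamini-Hochberg adjustment over 38439 probe sets at a threshold of 0.05. Age as a factor and line gave the difference between the lines and that of later ages from 1 d. A slope per week was fitted to the 8 pools of 2 w to 8 w with line, and a further term tested the difference between the lines at 1 d against later ages. Single ages were not tested. In data simulated on all 38439 probe sets, 95 of 100 changed by 1 on the log2 scale were recovered for the difference between the lines and 80 of 100 for later ages against 1 d, with 5 and 4 unchanged ones called. The term at 1 d recovered 20 of 100 at a change of 1 and 72 of 100 at 2. In each simulation 100 probe sets were changed at each size and all others held no change. The real fit called 35% of all probe sets for later ages against 1 d, so its recovery can differ from the simulated one. No change below 1 was simulated for these comparisons. Differences between the lines ran from -0.38 to 0.47 for the 36 members, so recovery at such sizes is not known.

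Any member could be named, with full values for members past the threshold, the largest differences in each comparison and at each age, PSMB5 and PSMB7, the activators, the inhibitor, the chaperones and the brightest and dimmest members. Partner genes were named where they passed. The members and the gene lists were chosen with earlier results of these data known. Alternatives covered the unit of replication, normalization, filters, the variance prior, the probe set, and each array number, age and pool left out. A Python 3.11.15 script made the summaries.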

Additional observations from a re-analysis of the deposited data

Results flagged for a closer look

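PSMG1 at 1 d had a difference between the lines far from its values at the other ages. It was -0.58 on the log2 scale, broiler pool minus layer pool, and lay between 0.01 and 0.24 at the 4 later ages. The gap to the nearest other age was 0.73 of the range of the 5 ages, where the limit is 0.71. All 36 proteasome genes were examined in this way, and chance passes about 1 in 20, so a single case is fewer than chance gives on average. The fit that tested the difference at 1 d against later ages gave an adjusted p of 0.385 for PSMG1. The SD of the 3 arrays of the broiler pool at 1 d was 0.34.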

How the results depend on the processing

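The direction of each member's change was kept under every alternative for the 17 members called between later ages and 1 d, for PSMC3IP and for the 6 largest differences between the lines. With the 30 arrays as independent samples, 2 members were higher and 8 lower in broilers (3996 of all probe sets called). For later ages against 1 d, 19 were higher and 5 lower, where the main fit had 14 and 3. In the same setting 1 member had a negative slope (1603 probe sets called) and 1 a lower difference between the lines at 1 d (1005). With the array number as a replicate block the counts were 2 higher and 8 lower (4412) between the lines. They were 18 higher and 5 lower for later ages, 2 negative slopes (1934) and 2 lower at 1 d (1222). With the pool as a random block they were 2 and 7 (3404), 17 and 5, none (1041) and 1 (920). Arrays of a pool are technical, so the counts of the fits with no term for the pool rest on too small a spread. The random block allows for 1 correlation shared by all probe sets, and whether that suffices was not tested. Deviations of same-numbered arrays of different pools had a median correlation of 0.14 and were over 0.1 in 76 of 135 pairs, against -0.07 and 51 of 270 pairs for arrays of different number, and 23 of 30 arrays correlated best with their own number. The numbers thus go with a shared deviation, though not in every pair, and nothing in the labels ties a number to a shared batch or day, so the block is an alternative only. With arrays centred on their medians, or with the mean over all probe sets of a gene, 0 members were higher in broilers. Quantile normalization moved the median of the members for later ages against 1 d to 0.27. Over all probe sets the slope called 121 with log2 of age and 35 above the median signal, and the term at 1 d called 46 without the intensity trend and 8 above the median signal. Leaving out an age gave 0 members higher in broilers and 128 to 760 probe sets called, and leaving out an array number 0 members and 294 to 603 probe sets. For later ages against 1 d, leaving out a pool gave 5 to 13 members higher and 7683 to 13745 probe sets called, leaving out an array number gave 8 to 14 members higher, and PSMA3 had a log2 difference of 0.52 without array number 1. For the slope, leaving out a pool gave 9 to 106 probe sets called. The number of pools limits the precision.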
